A study of Mus musculus with 2 samples.

Results

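Thalamus and habenula transcription factors were followed in RNA of mouse brain at postnatal day 10. The set holds 10 genes, the transcription factor genes Tcf7l2, Lef1, Gbx2, Lhx9, Pou4f1, Zic1, Zic4, Irx1 and Irx2, together with Prkcd, a kinase gene used as a marker of thalamic relay neurons. They were chosen by name, with earlier results of the same arrays known, and every probe that the array design assigns to 1 of these names was taken, which gave 25 of the 56603 probes and 10 of the 37324 gene names on the array. The difference between the arrays that follows is the quantity the choice rested on, so it is given as a description, with no test.

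The study set a brain of genotype GPHR F/F;Nes against the brain of a control littermate of genotype GPHR F/F, both of strain C57BL/6J at postnatal day 10. The series title speaks of a loss of GPHR in the brain. GPHR, the Golgi pH regulator, is a membrane protein of the Golgi encoded by Gpr89. Both brains carry the F/F alleles, and the labels do not say what Nes adds to them, whether RNA of several animals was pooled, or which parts of the brain were taken. Total RNA was labelled with Cy3 and each brain was hybridised to 1 array, so no replicate check exists for any difference below, and no p-value is given.

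The thalamus is the relay station of the forebrain, and the habenula is a small neighbouring nucleus that links the forebrain to midbrain neurons. Both arise from the same embryonic segment of the diencephalon, where canonical Wnt signalling, read out in the nucleus by TCF/LEF factors bound to beta-catenin, helps set regional identity. In the postnatal brain some of these factors continue to be expressed in neurons of the thalamus and habenula, but none of them is restricted to these nuclei: Zic genes are active in cerebellar granule cells and meninges, Lef1 in brain endothelium, and Tcf7l2 in maturing oligodendrocytes.

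The array measures each gene through probes of 60 bases, and the values of the set turn on a few of them. The first 30 bases of these are shown 5′ to 3′, as the scanner files give them. All 3 Pou4f1 probes are shown because 1 of them carries the largest difference in the set. Capitals mark an unbroken run of alternating G and A, which covers bases 10 to 24 of Pou4f1 probe 2.
Pou4f1 probe 1: tagttgggactatatcctctgaagtcatcc
Pou4f1 probe 2: gagaaagaaAGAGAGAGAGAGAGAaatgtg
Pou4f1 probe 3: tgctttaggaacttaactcctgggagcagt
On mm9, the build of the files, all 3 lie on the minus strand of chromosome 14, at chr14:104861950-104862009 for probe 1, chr14:104863312-104863371 for probe 2 and chr14:104864405-104864464 for probe 3.

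The Tcf7l2 probes are shown because 4 separate stretches of the gene gave a difference of similar size, the Gbx2 probe because it passed 2-fold, and Lhx9 probe 3 because it had signal on 1 array.
Tcf7l2 probe 1: gtacagcaatgaacacttcaccccgggaaa
Tcf7l2 probe 2: gatttgtatgtagttttaatgtcacctata
Tcf7l2 probe 3: caaaatactacgagctggcccggaaggaac
Tcf7l2 probe 4: agacggcctccgcctcgctccgaaagtttc
Gbx2 probe 1: gagagtatattcattagacgggcttaaagg
Lhx9 probe 3: agatgccaaggacctcaaacagcttgctca
On mm9 the Tcf7l2 probes lie on the plus strand at chr19:55982975-55983034, chr19:56007586-56007645, chr19:55994029-55994088 and chr19:55817272-55817331, in the order shown. The Gbx2 probe lies on the minus strand at chr1:91825013-91825072 and the Lhx9 probe on the minus strand at chr1:140729280-140729339. Which exons these stretches fall in was not analysed here.

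All 10 genes gave a signal well above background on both arrays with at least 1 probe, 18 of the 25 probes did so on both arrays, 1 on the GPHR F/F;Nes array alone and 6 on neither. Signals are the scanner software's processed intensity, in arbitrary units, and a difference is the log2 signal after subtraction of each array's 75th percentile, taken as GPHR F/F;Nes less GPHR F/F. The percentile was 173.4 units on the GPHR F/F;Nes array and 259.5 units on the GPHR F/F array, so this scaling adds 0.58 to every log2 ratio of raw signals. The error given with each difference is the one the scanner software attaches to a spot, and it holds no variation between animals. In bulk RNA, fewer cells of a type and less RNA per cell cannot be told apart.

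The targeted gene and the sex-linked genes were read as checks of the samples. Gpr89 read 20.04 units in GPHR F/F;Nes and 43.3 units in GPHR F/F, a difference of -0.53 ± 0.22. Xist, expressed from the inactive X chromosome, was seen only on the GPHR F/F;Nes array, at least 55.8-fold higher, and the Y-linked genes Eif2s3y, Uty and Ddx3y only on the GPHR F/F array, at least 93.7-, 16.9- and 10.9-fold lower in GPHR F/F;Nes. The arrays differ in sex-linked RNA as well as in genotype, and sex and genotype cannot be told apart for any member. Well above background were 69.2% of the probes on the GPHR F/F;Nes array and 67.0% on the GPHR F/F array.

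With this scaling the gene differences of all 10 members were above 0, with a median of 0.90, against a median of 0.074 and 56.9% above 0 over the 24112 genes measured on both arrays. Gbx2 and Pou4f1 were at least 2-fold higher in GPHR F/F;Nes, where 7.93% of all genes were, and no member was at least 2-fold lower, where 1.37% of all genes were. Of the 18 measured member probes 5 were at least 2-fold higher and none lower, where 7.11% and 1.45% of all measured probes were. Because the members were chosen on this contrast, nothing is read from these shares. Tcf7l2, Lef1, Gbx2, Lhx9 and Zic4 lay between 0.8 and 1.2, and Zic1, Irx1 and Prkcd within 0.2 of 0. In raw signal, 7 members were higher and 3 lower in GPHR F/F;Nes. The count of genes past 2-fold depends on the scaling: the higher ones made up 85.3% of them here, 56.9% with arrays centred on their medians, 68.2% after quantile normalization, 74.7% after loess and 1.97% when scaled to spike-in RNAs.

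**Figure D1:**
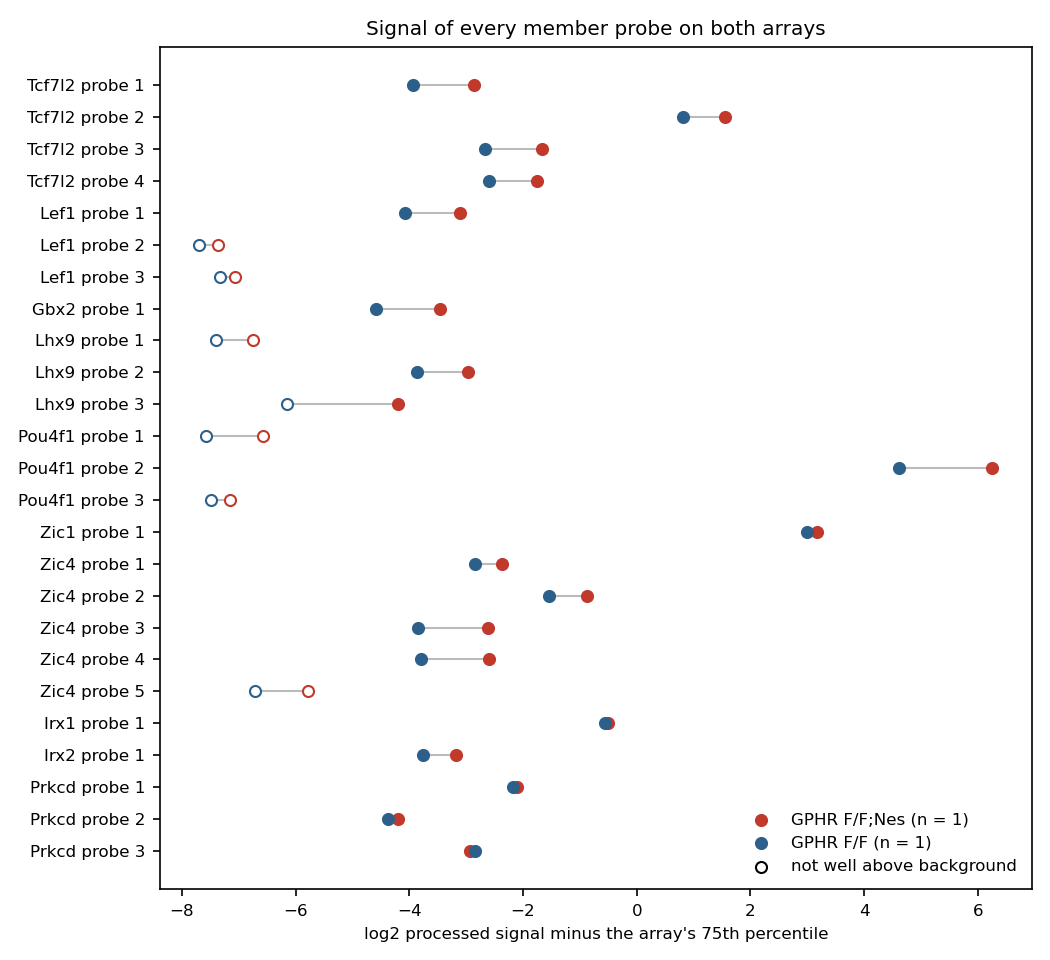
Log2 processed signal minus the array's 75th percentile (horizontal axis) for each of the 25 member probes (vertical axis), with 1 point per array, GPHR F/F;Nes in red and GPHR F/F in blue. Open points were not well above background. The red point lies to the right for most filled pairs and the pairs nearly coincide for Irx1, Zic1 and the Prkcd probes.

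Tcf7l2 encodes the TCF factor that stays on in most postnatal thalamic and medial habenular neurons and is widely used as their marker. Its probe 1 (A_52_P146043) read 24.0 units in GPHR F/F;Nes and 17.0 units in GPHR F/F. Probe 2 (A_52_P566741) read 510 units in GPHR F/F;Nes and 456 units in GPHR F/F. All of its probes were higher in GPHR F/F;Nes before any scaling. Probe 3 (A_55_P2030160) read 54.5 units in GPHR F/F;Nes and 40.9 units in GPHR F/F, and probe 4 (A_55_P2143724) read 51.3 units in GPHR F/F;Nes and 42.6 units in GPHR F/F. The 4 differences ran between 0.74 and 1.08, with an SD of 0.15 between probes, and their mean was 0.92 ± 0.11 (scanner error), or 1.89-fold. The spread between the probes was below the scanner error of each of them, and Tcf7l2 had the smallest error of the 10 genes.

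Lef1 encodes the related factor of the same TCF/LEF family, which binds the same DNA core and is found in some thalamic nuclei and in brain endothelium. Its probe 1 (A_55_P2076871) read 19.998 units in GPHR F/F;Nes and 15.5 units in GPHR F/F, a difference of 0.95 ± 0.26. The other Lef1 probes were well above background on neither array and give no difference. Probe 2 read 1.05 units in GPHR F/F;Nes against 1.25 units in GPHR F/F, and probe 3 read 1.30 units in GPHR F/F;Nes against 1.62 units in GPHR F/F. The Lef1 value therefore rested on 1 of 3 probes.

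Gbx2 encodes a homeodomain factor needed in the mouse embryo for thalamic relay neurons to form and send axons to the cortex. Its only probe (A_51_P179578) read 15.7 units in GPHR F/F;Nes and 10.9 units in GPHR F/F. The difference of 1.11 ± 0.29, or 2.16-fold, was the largest of the members other than Pou4f1, and 2-fold lies within its error. Of the genes within 0.25 log2 units of the level of Gbx2, 22.1% were at least 2-fold higher in GPHR F/F;Nes.

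Lhx9 encodes a LIM-homeodomain factor of the embryonic thalamus and of the pallium. Its probe 2 (A_55_P2111264) read 22.2 units in GPHR F/F;Nes and 17.8 units in GPHR F/F, a difference of 0.90 ± 0.25. Probe 3 (A_55_P2117853), whose sequence is shown above, read 9.47 units in GPHR F/F;Nes and was not well above background in GPHR F/F, where it read 3.66 units. Against the lowest signal counted as well above background on the GPHR F/F array, 6.28 units, this was at least 2.26-fold higher in GPHR F/F;Nes. Probe 1 was above background on neither array.

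Pou4f1, also known as Brn3a, encodes the POU-homeodomain factor that marks habenular neurons and maintains their gene expression. Its probe 2 (A_55_P2824501), the one with the run of alternating G and A, read 13232 units in GPHR F/F;Nes and 6384 units in GPHR F/F, a difference of 1.63 ± 0.20, or 3.10-fold. The other Pou4f1 probes were well above background on neither array: probe 1 read 1.83 units in GPHR F/F;Nes and 1.36 units in GPHR F/F, and probe 3 read 1.22 units in GPHR F/F;Nes and 1.45 units in GPHR F/F. Of the probes for this gene, the run-bearing one alone had a signal, on both arrays, and the whole Pou4f1 difference came from it.

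Probes holding such a run were therefore looked at as a class. Of 52 probes on the array that hold GAGAGAGAGA, which spans 10 bases, 50 were measured on both arrays (96.2%, against 64.8% of probes without it). Their median difference was 1.66, with quartiles of 1.43 and 1.86, against 0.042 for probes without the run. Of these 50 probes 84% were at least 2-fold higher in GPHR F/F;Nes, against 7.01% of the probes without the run, and none was at least 2-fold lower. The Pou4f1 probe stood 24th from the lowest of the 50, near the middle of the class.

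The median difference was larger for longer runs, up to 10 bases. Probes whose longest alternating run was at most 5 bases had a median difference of 0.039, those with 6 or 7 bases 0.090, those with 8 or 9 bases 0.76 and those with 10 or 11 bases 1.77. Pou4f1 probe 2, at 15 bases, falls in the class of 14 bases or more, where 16 of 16 probes were measured, the median was 1.62 and 93.8% were at least 2-fold higher in GPHR F/F;Nes. The other 17 measured member probes hold no run of 10 bases. Without the run-bearing probe Pou4f1 has no value, 9 members remain measured, and Gbx2 alone of them was at least 2-fold higher.

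**Figure D2:**
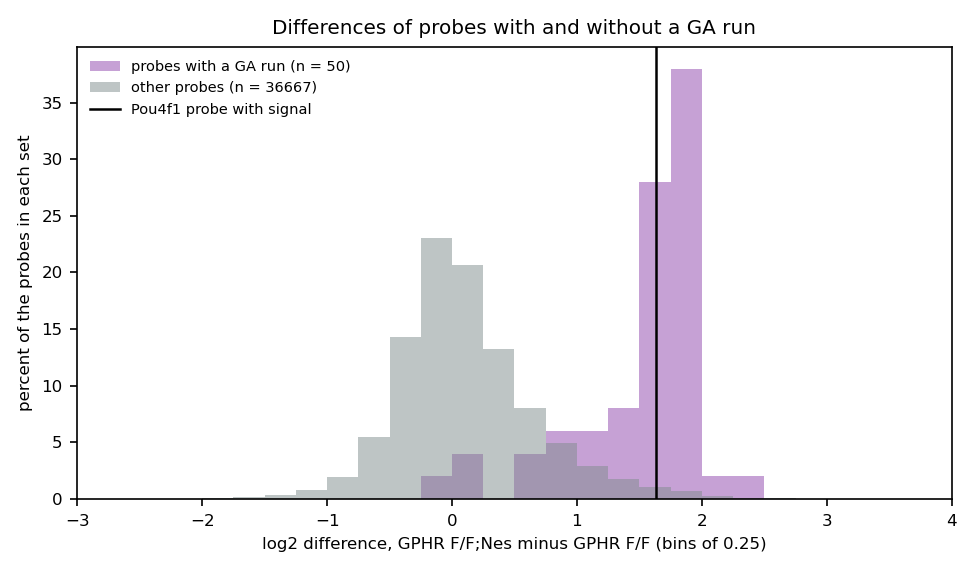
Percent of probes (vertical axis) by log2 difference, GPHR F/F;Nes less GPHR F/F (horizontal axis, bins of 0.25), for the 50 measured probes that hold GAGAGAGAGA and for all other measured probes. The black line is the Pou4f1 probe with signal. The run-bearing probes centre on 1.66 and the others on 0.042, and the Pou4f1 line at 1.63 falls within the first set.

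Zic1 and Zic4 encode zinc-finger factors of the dorsal diencephalon, cerebellar granule cells and meninges, and the genes are neighbours on chromosome 9, transcribed in opposite directions. Zic1, with 1 probe (A_51_P194230), read 1562 units in GPHR F/F;Nes and 2073 units in GPHR F/F, lower in raw signal and 0.17 ± 0.20 after scaling, within its error of 0. Zic4 had 4 measured probes. Probe 1 (A_51_P145480) read 33.6 units in GPHR F/F;Nes and 36.1 units in GPHR F/F, a difference of 0.48. This probe, like the Zic1 probe, was lower in raw signal in GPHR F/F;Nes.

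Zic4 probe 2 (A_55_P2152637) read 95.0 units in GPHR F/F;Nes and 88.7 units in GPHR F/F, a difference of 0.68. Probe 3 (A_55_P2721767) read 28.1 units in GPHR F/F;Nes and 18.0 units in GPHR F/F, and probe 4 (A_55_P2883530) 28.5 units in GPHR F/F;Nes and 18.8 units in GPHR F/F, differences of 1.22 and 1.19. The Zic4 probes therefore split, 2 below 0.7 and 2 above 1.1, and the spread between them (SD 0.37) exceeded the scanner error of their mean, 0.89 ± 0.11. Probe 5 was above background on neither array. The probes carry different transcript records, and which Zic4 transcripts each of them reads was not analysed here.

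Irx1 and Irx2 encode Iroquois homeodomain factors that take part in patterning the embryonic brain. Irx1 (A_52_P1092823) read 123 units in GPHR F/F;Nes and 176 units in GPHR F/F, a difference of 0.063 ± 0.20. Irx2 (A_52_P398122) read 19.19 units in GPHR F/F;Nes and 19.11 units in GPHR F/F, so its raw signals were nearly equal and its difference of 0.59 ± 0.25 was almost wholly the scaling term of 0.58. The genes lie near each other on chromosome 13, with 1 probe each.

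Prkcd encodes protein kinase C delta, enriched in thalamic relay neurons and used to tell thalamus from its surroundings. Its probe 1 (A_51_P460734) read 40.3 units in GPHR F/F;Nes and 57.6 units in GPHR F/F. Probe 2 (A_52_P197498) read 9.49 units in GPHR F/F;Nes and 12.5 units in GPHR F/F, and probe 3 (A_55_P2008071) 22.8 units in GPHR F/F;Nes and 36.2 units in GPHR F/F. All 3 were lower in raw signal in GPHR F/F;Nes. After scaling they lay between -0.086 and 0.19, with a mean of 0.056 ± 0.15, so the thalamic neuron marker differed from 0 by less than its error while Tcf7l2 stood at 0.92.

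**Figure D3:**
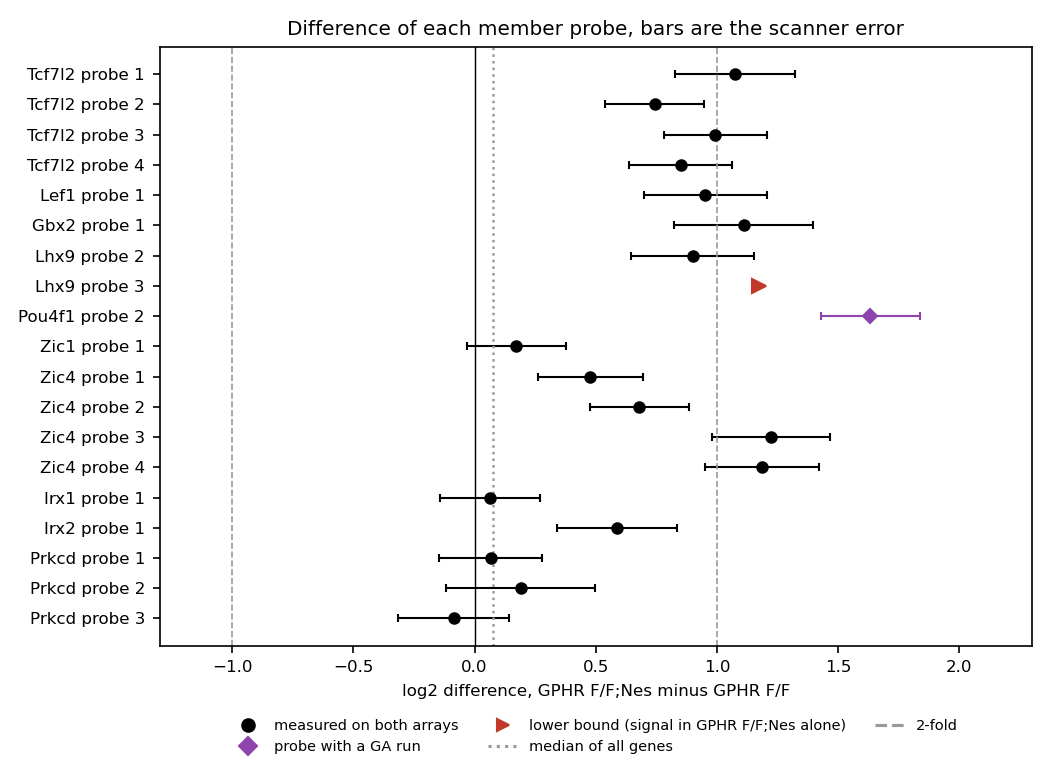
Log2 difference, GPHR F/F;Nes less GPHR F/F (horizontal axis), of each member probe measured on both arrays, with bars for the scanner error. The triangle is the lower bound of Lhx9 probe 3 and the purple diamond the run-bearing Pou4f1 probe. The 4 Tcf7l2 probes lie between 0.74 and 1.08, the Zic4 probes spread between 0.48 and 1.22, and the Prkcd probes lie around 0.

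The differences were set beside genes of like signal, since dim genes had larger differences as a class. The median difference was 0.45 in the second of 20 level classes and below 0 in classes 12 to 19. Genes within 0.25 log2 units of Gbx2 had a median of 0.43, those near Lef1 0.39, those near Lhx9 0.36 and those near Irx2 0.36. Above its own level Tcf7l2 stood 0.81, Gbx2 0.68, Zic4 0.65, Lef1 0.57 and Lhx9 0.54. Zic1 stood 0.29 above its level, Irx2 0.22 and Irx1 0.065, while Prkcd stood at -0.25, below it. The order of the members is therefore not the same by this measure, with Tcf7l2 ahead of Gbx2, and Pou4f1, on its run-bearing probe, at 1.62.

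**Figure D4:**
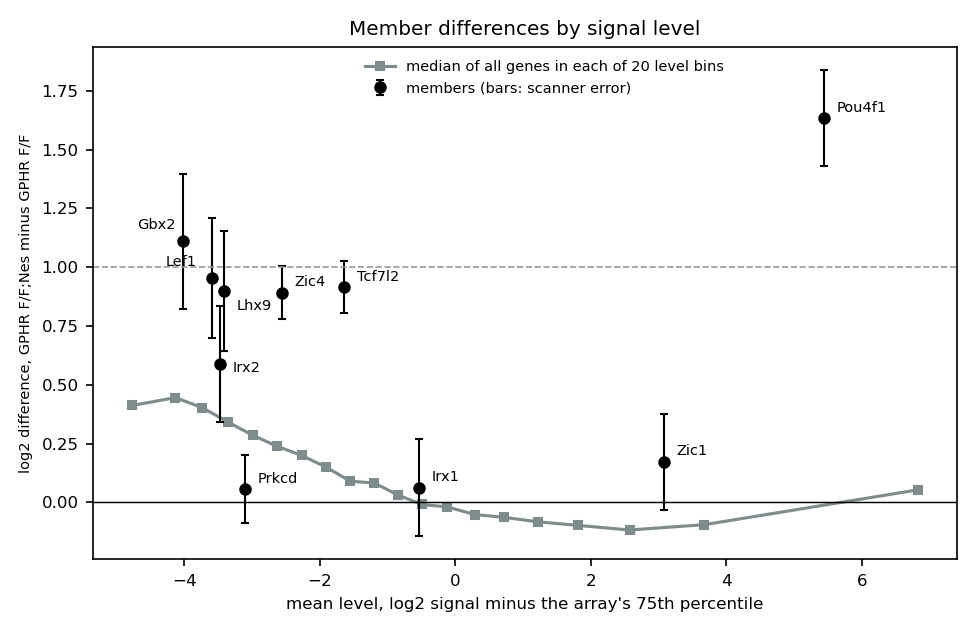
Log2 difference, GPHR F/F;Nes less GPHR F/F (vertical axis), against mean level (horizontal axis) for the 10 members with scanner error bars, over the median of all genes in 20 level classes (grey). The grey line lies above 0.4 at the dim end, below 0 in classes 12 to 19 and at 0.053 in the brightest class, and Tcf7l2, Gbx2, Zic4, Lef1 and Lhx9 lie above it while Prkcd lies below.

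Tcf7l2, Lef1, Gbx2, Lhx9, Pou4f1, Zic4 and Irx2 stayed above 0 under median centring, quantile normalization, loess and normexp. Under normexp Lef1 at 0.14, Gbx2 at 0.13, Lhx9 at 0.14 and Irx2 at 0.068 differed from 0 by less than their scanner errors. Scaling to the 8 spike-in probes left Lef1, Gbx2 and Pou4f1 alone above 0. There Lef1 at 0.0011 and Gbx2 at 0.16 were within their errors of 0.26 and 0.29, and Pou4f1 at 0.68 rested on its run-bearing probe. Median centring left 7 members above 0, quantile normalization 8, loess 9, normexp with quantile normalization 8 and spike-in scaling 3. Spike-in scaling moves the median of all genes by -0.95, median centring by -0.28 and quantile normalization by -0.11. Relative to the median of all genes the members keep their places under spike-in scaling and median centring, since each adds 1 constant to all. Tcf7l2 ran between -0.036 and 0.92 over the alternatives, and Pou4f1 between 0.68 and 1.65.

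**Figure D5:**
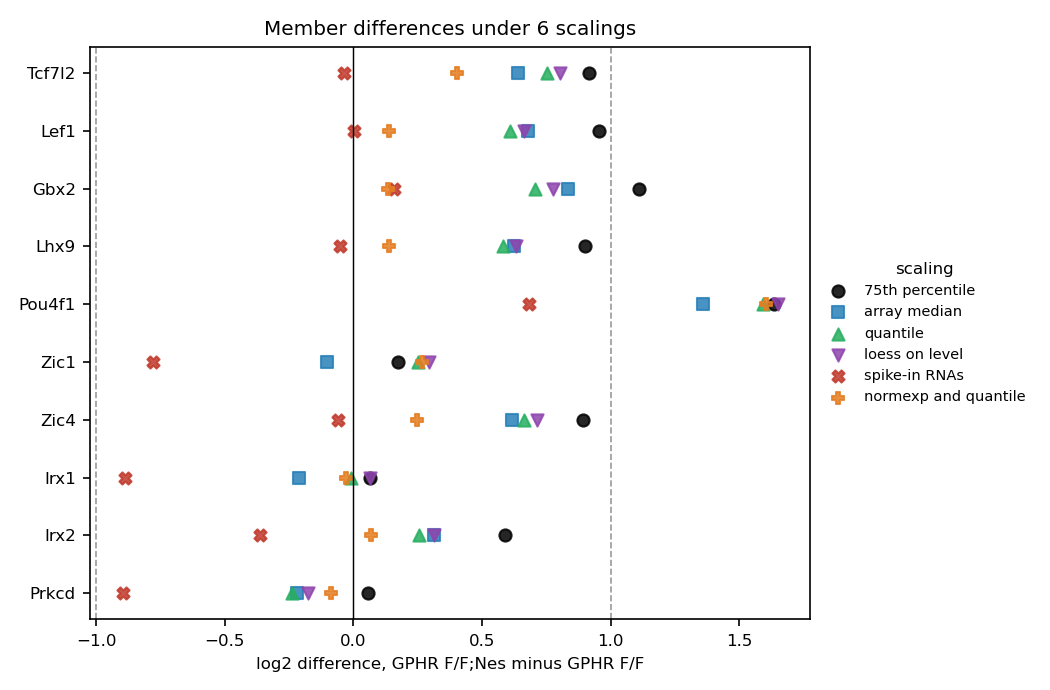
Log2 difference, GPHR F/F;Nes less GPHR F/F (horizontal axis), of each member (vertical axis) under 6 scalings, with 1 marker for each. The spike-in values (red crosses) lie lowest for most members, Pou4f1 stays above 0 under all 6, and Prkcd lies below 0 under every scaling but the 75th percentile.

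Other genes of the thalamus had values on both sides of 0. Of 14 listed thalamic relay neuron genes, all were measured, none was at least 2-fold apart in either direction, 8 lay above 0 and 6 below, and the median was 0.068, close to that of all genes. Slc17a6, the vesicular glutamate transporter of thalamic relay neurons, read 152 units in GPHR F/F;Nes and 374 units in GPHR F/F, a difference of -0.72 ± 0.20. Ntng1, a netrin-family adhesion molecule of thalamic axons, stood at -0.62 ± 0.14 over 3 probes, and the actin-associated gene Amotl1 at 0.81 ± 0.26. Synpo2, also actin-associated, averaged 0.63 over probes at 0.10 and 1.16 (SD 0.75). Lhx2 stood at -0.60 ± 0.20, Slitrk6 at -0.59 ± 0.25, Tnnt1 at 0.59 ± 0.17 and Ramp3 at 0.55 ± 0.14. The Ramp3 probes read 1264 and 1313 units in GPHR F/F;Nes against 1247 and 1399 units in GPHR F/F. The Tnnt1 probes read 15.1 and 37.25 units in GPHR F/F;Nes against 13.5 and 41.2 units in GPHR F/F. The Tnnt1 and Ramp3 differences were thus almost wholly the scaling term of 0.58.

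Among the 17 habenula genes, 14 were measured on both arrays, with a median of -0.090, and 1 lay past 2-fold in each direction. Slc18a3, the vesicular acetylcholine transporter of cholinergic neurons, read 9.45 units in GPHR F/F;Nes and 74.8 units in GPHR F/F, a difference of -2.40 ± 0.28. Slc5a7, the choline transporter, gave a signal on the GPHR F/F array only and was at least 3.42-fold lower in GPHR F/F;Nes. Chat, the enzyme that makes acetylcholine, stood at 0.89 ± 0.15, so the cholinergic genes did not share a direction. Chrnb3, a nicotinic receptor subunit of habenular neurons, read 27.8 units in GPHR F/F;Nes and 10.5 units in GPHR F/F, a difference of 1.98 ± 0.29. This value rested on 1 probe. The other Chrnb3 probe read 1.26 units in GPHR F/F;Nes and 1.52 units in GPHR F/F, above background on neither array. Tac2, a neurokinin gene of the medial habenula, stood at -0.82 ± 0.21. Chrna3 and Gpr151, which define habenular neurons, were above background on neither array.

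The prethalamus, the neighbouring segment that gives rise to inhibitory neurons, was read through 13 genes, all measured, with a median of -0.21. Lhx1, a LIM-homeodomain gene, stood at 1.17 ± 0.14 over 3 probes and was the only one past 2-fold. Pax6 stood at 0.79 ± 0.12, Dlx1, a factor of inhibitory neurons, at -0.51 ± 0.20 and Sp8, a zinc-finger factor, at -0.84 ± 0.20.

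Relatives of the members in the same gene families were next compared. Of 27 such genes 23 were measured, with a median of 0.17, and 4 were at least 2-fold higher and 1 lower in GPHR F/F;Nes. The TCF/LEF factors had similar values before signal level was taken into account. Tcf7 stood at 0.90 ± 0.22 and Tcf7l1 at 0.90 ± 0.20, close to 0.92 for Tcf7l2 and 0.95 for Lef1. Set beside genes of like signal, Tcf7l2 and Lef1 were further apart, 0.81 and 0.57 above their levels. The measured Tcf7 probes were dim, with signals between 9.02 and 15.9 units, and the Tcf7l1 probe was brighter, between 145 and 181 units. Neither gene was set beside genes of like signal, so how far the likeness reflects signal level was not tested. In the Zic family Zic5 stood at 1.03 ± 0.22, near Zic4, while Zic2 stood at 0.12 ± 0.15, near Zic1. In the Irx family Irx3 stood at 1.13 ± 0.22, Irx4 at 0.52 ± 0.34 and Irx6 at 0.58 ± 0.28. Irx4 read 8.98 units in GPHR F/F;Nes and 9.40 units in GPHR F/F, and Irx6 13.88 and 13.89 units in that order. Neither was higher in raw signal, and their differences came from the scaling term of 0.58. Irx5, seen only on the GPHR F/F;Nes array, was at least 2.52-fold higher.

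Of the LIM-homeodomain relatives of Lhx9, Lhx5 stood at 0.995 ± 0.21, Lhx2, which shares its role in the embryonic thalamus, at -0.60 ± 0.20. The Lhx8 probes disagreed, at -1.91 and 0.015, so their mean of -0.95 has an SD of 1.36 between probes. Lhx3 stood at 0.33 ± 0.21 and Lhx4 at 0.17 ± 0.23. Lhx6 read 9055 units in GPHR F/F;Nes and 5416 units in GPHR F/F, a difference of 1.32 ± 0.20, on a probe that holds CACACACACA. Gbx1 stood at 0.16 ± 0.28, and the Pou4f1 relatives Pou4f2 and Pou4f3 were above background on neither array. Of the kinase relatives of Prkcd, Prkch, seen only on the GPHR F/F;Nes array, was at least 2.16-fold higher, and Prkca, Prkcb, Prkce, Prkcq, Prkci and Prkcz lay between -0.40 and -0.078.

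Tcf7l2 and Lef1 act downstream of beta-catenin, and other genes of that pathway were read through a list of 27. On both arrays 23 were measured, with a median of -0.044, 9 above 0 and 14 below, 1 at least 2-fold higher and none lower. Among the ligands and receptors, Wnt8b stood at 0.86 ± 0.27, Fzd7 at 0.85 ± 0.21 and Fzd10 at 1.02 ± 0.22, while the ligand genes Wnt1, Wnt3 and Wnt7b stood at -0.43 ± 0.21, -0.41 ± 0.27 and -0.42 ± 0.14. Ctnnb1, which encodes beta-catenin, stood at 0.019 ± 0.12. Axin2, a widely used target gene of the pathway, read 96.0 units in GPHR F/F;Nes and 132 units in GPHR F/F, a difference of 0.12 ± 0.21. Its other probe was well above background on the GPHR F/F array only, at 10.1 units against 5.68 units in GPHR F/F;Nes. Rnf43, a feedback inhibitor, stood at -0.88 ± 0.26, Nkd1 at -0.52 ± 0.20 and Notum at -0.45 ± 0.20. Fzd5 and Sp5, seen only on the GPHR F/F;Nes array, were at least 2.22-fold and at least 1.47-fold higher. Sp5 read 6.15 units there, below the lowest signal counted as well above background in GPHR F/F, 6.28 units. The Sp5 bound therefore came from the scaling term.

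Markers of cells that also express some of the members were read on the same arrays. Of 13 meninges markers 8 were measured, 6 of them at least 2-fold higher in GPHR F/F;Nes, with a median of 2.34. Slc6a13, a transporter of meningeal cells, stood at 2.84 ± 0.28, Igf2 at 2.78 ± 0.16, and the collagen genes Col3a1 and Col1a2 at 2.62 ± 0.21 and 2.61 ± 0.21. Dcn, the only measured marker of this list below 0, stood at -0.070 ± 0.20. The summed signal of the measured markers was 2549 units in GPHR F/F;Nes and 2173 units in GPHR F/F. Dcn alone read 1071 units in GPHR F/F;Nes and 1682 units in GPHR F/F, a large part of both sums. Aldh1a2, a retinoic acid-making enzyme of the meninges, and the factor genes Tbx18, Foxd1 and Twist1 were seen only on the GPHR F/F;Nes array, with bounds of at least 10.4-, 4.26-, 2.56- and 1.62-fold higher. Twist1 read 6.79 units there, against a lowest counted signal of 6.28 units in GPHR F/F, so most of its bound came from scaling. Crabp2 had no probe under its name. The part of meningeal RNA in the Zic and Lef1 values was not tested.

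Of 14 brain endothelial markers 10 were measured, 3 at least 2-fold higher and none lower, with a median of 0.087, 6 above 0 and 4 below. The VEGF receptor genes Flt1 and Kdr stood at 1.35 ± 0.21 and 1.23 ± 0.20, Ly6c1 at 1.199 ± 0.38 and Abcb1a at 0.91 ± 0.28, while the junction gene Ocln stood at -0.61 ± 0.31, Sox17 at -0.40 ± 0.21, Pecam1 at -0.072 ± 0.23 and Mfsd2a at -0.020 ± 0.20. The Flt1 and Kdr values rested on 1 probe each, and the other probes of both genes were above background on neither array. Foxf2, seen only on the GPHR F/F;Nes array, was at least 2.58-fold higher, while Cldn5, Cdh5 and Tek were above background on neither array. Their summed signal was 2182 units in GPHR F/F;Nes and 2256 units in GPHR F/F. Of 15 oligodendrocyte lineage markers 13 were measured, with a median of -0.19, none at least 2-fold higher and 1 lower. Gpr17, a marker of committed oligodendrocyte precursors, stood at -2.46 ± 0.20, and Enpp6, seen only on the GPHR F/F;Nes array, was at least 1.83-fold higher. Enpp6 read 7.88 units in GPHR F/F;Nes and 6.47 units in GPHR F/F, so most of its bound came from the scaling term. The summed signal of the measured oligodendrocyte lineage markers was 6081 units in GPHR F/F;Nes and 11826 units in GPHR F/F. The 8 pan-neuronal markers all lay below 0, with a median of -0.22. The part of endothelial, oligodendrocyte or neuronal RNA in the Lef1 and Tcf7l2 values was not tested.

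Of 9 choroid plexus markers 7 were measured, 3 at least 2-fold higher and none lower, with a median of 0.93. Ttr, the transthyretin gene of that epithelium, read 716 units in GPHR F/F;Nes and 26.2 units in GPHR F/F, a difference of 5.35 ± 0.22. Otx2 stood at 1.36 ± 0.14, Clic6, seen only on the GPHR F/F;Nes array, was at least 4.54-fold higher, and Kl was above background on neither array. The choroid plexus adjoins the habenula, and the labels do not say how the brains were cut, so dissection and genotype cannot be told apart.

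The promoters of the members were searched for the DNA core of the TCF/LEF factors, because Tcf7l2 and Lef1 are themselves members. RefSeq windows of 300 bases, 250 before to 50 after each transcript start on GRCm38.p6, were held for 9 of the 10 genes (14 windows). The 7-letter core CTTTGAT, or ATCAAAG on the other strand, was in 0 of the 14 windows and in 3.73% of all 32851 windows. The homeodomain core TAATTA was in 0 of 14 and in 5.29% of all. The short form CTTTG, or CAAAG, which the 7-letter core contains, was in 11 of 14 and in 53.9% of all. The windows are not independent, since Lef1 has 4 windows, some overlapping, and Tcf7l2 and Prkcd have 2 each, and by gene the short form was in 6 of 9. Tcf7l2 had the most probes in step, and Gbx2 had the largest gene difference of the members other than Pou4f1. The 250 bases before the first Tcf7l2 start and before the Gbx2 start are therefore shown, with the short form in capitals.
Tcf7l2: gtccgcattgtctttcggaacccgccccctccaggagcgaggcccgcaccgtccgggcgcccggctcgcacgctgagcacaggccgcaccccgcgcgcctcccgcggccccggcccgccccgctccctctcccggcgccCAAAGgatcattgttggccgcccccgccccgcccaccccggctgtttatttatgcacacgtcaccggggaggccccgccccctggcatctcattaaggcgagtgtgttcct
Gbx2: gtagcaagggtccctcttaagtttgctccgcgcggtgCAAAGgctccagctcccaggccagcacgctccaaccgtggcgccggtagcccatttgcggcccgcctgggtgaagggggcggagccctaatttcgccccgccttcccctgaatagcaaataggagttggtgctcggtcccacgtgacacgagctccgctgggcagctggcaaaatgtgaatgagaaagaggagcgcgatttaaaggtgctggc
The Tcf7l2 stretch is chr19:55741560-55741809 on the plus strand and the Gbx2 stretch chr1:89931177-89931426 on the minus strand, each with 1 match. These are matches of letters in a window and no measure of binding.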

How the data were processed

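Total RNA of a GPHR F/F;Nes brain and its GPHR F/F littermate was measured on 1 Agilent 1-colour array each. Per the submitters' processing notes, scans were read with Agilent Feature Extraction 11.5.1.1. Per the file headers, the deposited processed intensity is on a linear scale with background and spatial trend removed. The deposited raw mean and background intensities were used for 1 alternative. The deposited flags (other values, 0 or 1) mark saturated spots, outliers and spots well above background. The deposited series table is on the log2 scale and differs from log2 of the processed signal by 1 constant for each array (-7.43 for GPHR F/F;Nes and -8.01 for GPHR F/F), within 0.001 for 99.9% of probes. Its column medians were -2.92 for GPHR F/F;Nes and -3.19 for GPHR F/F. The sources used here do not say how the authors set the constants. In value they nearly equal minus the log2 75th percentile used here, -7.44 for GPHR F/F;Nes and -8.02 for GPHR F/F.

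Each array had 59305 non-control spots; outlier spots (96 on either array) were dropped, spots of a probe averaged in log2, and the array's 75th percentile subtracted. No spot was saturated. A probe was measured if well above background on both arrays (36717 of 56603), and a gene is the mean of its measured probes. The value of a list gene may therefore rest on only some of its probes. A probe with signal on 1 array got a lower bound against its own dim signal or, where higher, the lowest signal that passed as well above background on that array (5.06 units for GPHR F/F;Nes, 6.28 for GPHR F/F). For such a gene the probe with the brightest signal on the array that showed it was used. Bounds were taken after scaling, which raises those of genes seen only on the GPHR F/F;Nes array and lowers the others. Accessions matched a RefSeq table (GRCm38.p6, names only) for 32993 probes, and 1535 symbols changed. With 1 array per group no test was made. Named are all members with every probe, up to 4 genes of each of 15 lists with the largest differences, list genes with signal on 1 array, and Gpr89; others, such as Ctnnb1, Axin2, Wnt1, Ocln and Tnnt1, were chosen after their values were seen. A few list genes are counted but not reported by name here. Members and lists were chosen with earlier results of these data known. Alternatives were array centring, quantile, loess (span 0.3), spike-in and normexp (offset 50) scaling, the deposited table, probe filters, probe summaries, outlier spots, thresholds and run-bearing probes left out, the last chosen after seeing the data. Counting was tested on simulated data. Python 3.11.15, numpy 2.4.6, pandas 2.3.3, R 4.3.3 and limma 3.58.1 were used.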

Additional observations from a re-analysis of the deposited data

How the results depend on the processing

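With 1 array per genotype, the number of arrays limits the precision, and the scanner error omits variation between animals. No paired analysis was possible because each group has 1 array and no replicate number. Members at least 2-fold higher in GPHR F/F;Nes numbered 2, against 1 with median centring, quantile normalization, loess, normexp, the stricter filter, run-bearing probes left out or a 3-fold threshold, 0 with spike-in scaling and 7 with a 1.5-fold threshold. The members' median of 0.90 became 0.62 with median centring, 0.60 with quantile normalization, 0.65 with loess, -0.056 with spike-in scaling, 0.14 with normexp and 0.38 with the stricter filter, which left 6 members. The other 25 values of these results moved by less than the scanner error or within 1.5 times, and no member was at least 2-fold lower under any alternative run. Of the values for single members and lists, 86 moved by more than their error and 209 did not. That split is no measure of stability, since some alternatives are nearly the main setting. The deposited table shifted the median of all genes by -0.0020 and kept outlier spots by -0.00038.

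The counts over the whole array moved too. In GPHR F/F;Nes 1912 genes passed 2-fold upward and 330 downward. Median centring gave 1081 and 818, quantile normalization 1233 and 576, loess 1394 and 473, spike-in scaling 186 and 9233, normexp 330 and 90, no filter 5549 and 788, and the stricter filter 884 and 238. Thresholds of 1.5-fold gave 4370 and 1382, and of 3-fold 549 and 60. The cause of these shifts was not tested, except that spike-in scaling and median centring add 1 constant to every gene, and filters and thresholds change which genes can count.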

Other observations

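Genes of other brain regions were read in the same way, as values with no test. Of 21 hypothalamus genes 15 were measured, 4 at least 2-fold higher in GPHR F/F;Nes and none lower, with a median of 0.17. These 4 were the transcription factor genes Foxb1 (1.53), Fezf1 (1.41), Hmx3 (1.38) and Hmx2 (1.36), and Otp was seen only on the GPHR F/F;Nes array, at least 1.88-fold higher. The Otp probe behind this bound read 8.99 units in GPHR F/F;Nes and 7.17 units in GPHR F/F, so most of the bound came from scaling. Of 18 midbrain and pretectum factor genes 9 were measured, 3 at least 2-fold higher and none lower, with a median of 0.45: Gata3 (2.003), Lmx1a (1.43) and Otx2 (1.36). Gata2, Tfap2b and Foxa1 were seen only on the GPHR F/F;Nes array, at least 1.92-, 1.68- and 3.21-fold higher, and Sox14 and Tfap2d only on the GPHR F/F array, at least 3.38- and 2.68-fold lower in GPHR F/F;Nes. Gata2 and Tfap2b read 8.06 and 7.07 units in GPHR F/F;Nes, against a lowest counted signal of 6.28 units in GPHR F/F. Most of their bounds came from scaling. In the hindbrain list 4 of 12 genes were measured, with a median of -0.19. Hoxb2 stood at 1.84 on 1 probe, and its other probe was above background on neither array. Hoxa3, seen only on the GPHR F/F;Nes array, was at least 3.98-fold higher.

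The 15 cortex and telencephalon factor genes were all measured, with a median of -0.050, none at least 2-fold higher and 2 lower in GPHR F/F;Nes, Neurod1 (-1.39) and Bhlhe22 (-1.33). Of 12 cerebellum genes 8 were measured, with a median of -0.82, none at least 2-fold higher and 3 lower: Neurod1, Car8 (-1.21) and Pcp4 (-1.14). Atoh1, seen only on the GPHR F/F;Nes array, was at least 2.09-fold higher. Zic1, which cerebellar granule cells also express, stood at 0.17 on the same arrays.

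Other probes with repeated letter pairs showed further values by the letters repeated. Among 91 measured probes with CACACACACA the median difference was 1.37 and 79.1% were at least 2-fold higher in GPHR F/F;Nes. Among 42 with CTCTCTCTCT the median was -0.20 and none was at least 2-fold higher, among 137 with GTGTGTGTGT it was -0.34 and 2.19%, and among 19 with ATATATATAT it was 0.074 and 15.8%. The GA and GT classes thus lay on opposite sides of the median of all probes. Lrp5 and Snap25 in the lists also had a probe with CACACACACA, and their probes spread between 0.018 and 1.12 for Lrp5 and between -0.84 and 0.87 for Snap25.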
